A study of Mus musculus with 12 samples.

Results

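The neuropeptide genes of the retina described here are Vip, Npy, Sst, Tac1, Cck, Penk and Adcyap1, taken by name from the deposited count table, 7 of its 32544 gene rows. They were followed in eyes of male 12-week-old mice lacking Nr3c1, the glucocorticoid receptor gene, in the retina (cKO, Cre+) and in Cre- mice (WT). All mice were kept in 12 h light and 12 h dark for 2 weeks, moved to constant darkness, and had their eyes taken on the second day at circadian times CT2, CT6, CT10, CT14, CT18 and CT22. For each genotype and time the RNA of 3 mice was mixed, which gave 12 libraries, 6 cKO and 6 WT, with 1 library for each genotype at each time. Pools hide the spread between single mice, and no genotype and time had a repeated pool. Each p-value of the models therefore rests on how far single pools departed from the fitted model. The spread between repeated pools was not measured. The driver of Cre is not named in the sources used here, and since Cre was present in all cKO mice and in no WT mouse, Cre itself and loss of the receptor cannot be told apart.

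Neuropeptides are made as precursor proteins that are cut by convertases, packed into dense core granules and released by neurons, and most act through G protein-coupled receptors on neighbouring cells. In the mammalian retina they are found mostly in sparse amacrine cells, where they act beside GABA, glycine or dopamine, and some also occur in ganglion cells. Several are known from the circadian system of the brain, where vasoactive intestinal peptide couples the cells of the suprachiasmatic nucleus, and PACAP (from Adcyap1) and neuropeptide Y carry photic and non-photic signals to it. Nerve fibres that enter the eye from outside carry the same peptides, but the RNA of those fibres' cell bodies stays largely outside the eye.

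The tissue labels of the samples name the ciliary body, and a line of cells of its nonpigmented epithelium, whereas the protocols describe whole eyes. Whole-eye material is what the counts held. The 10 rod and bipolar cell markers summed to 37916 to 49073 CPM (counts scaled to the size of the library) in cKO libraries and 38253 to 45080 CPM in WT libraries, and the 8 lens markers to 32251 to 44444 CPM in cKO and 24430 to 38206 CPM in WT. The 18 amacrine and horizontal cell markers (among them Gad1, Slc6a9 and Chat) summed to 1477 to 1600 CPM in cKO and 1484 to 1593 CPM in WT. None of the 18 passed the genotype test, and 9 of them were higher in cKO and 9 lower. Among markers of autonomic and sensory nerve cells, Phox2a had 1 count, Hand2 0 and Scn10a 3 over all 12 libraries. In whole-eye RNA, fewer cells of a type and less RNA per cell cannot be told apart. Nor do the counts show which reads of the neuropeptide genes came from the retina and which from other tissues of the eye. Library totals ran from 10466253 to 10686868 counts. Nr3c1 averaged 45.8 ± 4.40 CPM in cKO libraries and 65.8 ± 7.44 CPM in WT libraries (SD, n = 6 each), and was lower in cKO in 6 of 6 pairs (log2 difference -0.52 ± 0.06 SE, edgeR adjusted p = 0.0018).

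The stretch around the annotated start of transcription is shown for 4 of the genes: Npy because its transcript had the clearest daily time course, and Sst, Tac1 and Cck because they hold more than the short motif found in Vip and Adcyap1. Each runs from 250 bases before to 50 bases after the RefSeq start (build GRCm38.p6), 5′ to 3′ on the gene's strand, and capitals mark motif matches on either strand. The motifs searched were the cAMP response element (CRE) TGACGTCA, its short core TGACG, the E-box CACGTG bound by clock proteins, the D-box TTATGTAA, and TGTTCT, the core of glucocorticoid receptor sites. The Npy window is at chr6:49822460-49822759 on the plus strand, Sst at chr16:23890795-23891094 on the minus strand, Tac1 at chr6:7554811-7555110 on the plus strand and Cck at chr9:121495645-121495944 on the minus strand.
Npy: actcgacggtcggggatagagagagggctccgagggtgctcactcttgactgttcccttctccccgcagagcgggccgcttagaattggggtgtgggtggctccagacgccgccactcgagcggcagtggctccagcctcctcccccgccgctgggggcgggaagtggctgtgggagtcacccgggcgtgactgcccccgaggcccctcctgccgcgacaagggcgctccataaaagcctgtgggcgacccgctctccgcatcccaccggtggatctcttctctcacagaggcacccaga
Sst: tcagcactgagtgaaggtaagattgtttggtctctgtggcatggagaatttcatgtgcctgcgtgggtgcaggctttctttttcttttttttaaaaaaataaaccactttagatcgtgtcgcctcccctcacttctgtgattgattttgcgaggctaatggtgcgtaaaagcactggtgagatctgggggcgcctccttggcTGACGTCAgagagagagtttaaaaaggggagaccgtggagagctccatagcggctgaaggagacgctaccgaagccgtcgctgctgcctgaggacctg
Tac1: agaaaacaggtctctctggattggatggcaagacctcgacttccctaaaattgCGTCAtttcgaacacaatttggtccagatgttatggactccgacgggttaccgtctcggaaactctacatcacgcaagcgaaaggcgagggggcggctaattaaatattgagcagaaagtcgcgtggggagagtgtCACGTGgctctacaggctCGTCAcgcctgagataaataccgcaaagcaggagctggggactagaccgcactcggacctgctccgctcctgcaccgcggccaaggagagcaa
Cck: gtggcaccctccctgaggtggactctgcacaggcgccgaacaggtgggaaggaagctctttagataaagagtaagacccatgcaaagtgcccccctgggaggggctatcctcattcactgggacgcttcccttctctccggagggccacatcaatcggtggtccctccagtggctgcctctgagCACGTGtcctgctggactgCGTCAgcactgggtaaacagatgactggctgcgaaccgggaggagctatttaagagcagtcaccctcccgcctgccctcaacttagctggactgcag
The Npy window held none of the 5 motifs. The Sst window held the full CRE with its first base at position -48 from the start of transcription, which contains the short core on both strands. Tac1 held an E-box at -61 and the core on the minus strand (CGTCA as printed) at -197 and -43, and Cck held an E-box at -66 and the core on the minus strand at -47. Of 32851 promoter windows of this length in the table, 1.79% hold the CRE, 20.8% its core, 7.15% the E-box, 0.938% the D-box and 19% TGTTCT. Of the 6 genes with an entry, 1 held the CRE, 5 its core, 2 the E-box, and 0 the D-box or TGTTCT. The core also lies at -79 in Vip and at -91 in the first of the Adcyap1 entries. Matches of letters are a description and not a sign of binding.

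In GENCODE M21 (build GRCm38) Npy lies at chr6:49822710-49829507 and Tac1 on the same chromosome at chr6:7554879-7565834, both on the plus strand. Vip lies at chr10:5639218-5647617 and Adcyap1 at chr17:93199017-93206537, also on the plus strand. Sst lies at chr16:23889573-23890958, Cck at chr9:121489824-121495694 and Penk at chr4:4133531-4138819, all on the minus strand. The values given here are read counts summed over each gene's row, with no split by exon or UTR.

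Levels differed by 115 times between the highest and the lowest of the 7 transcripts when each was divided by its exon length. Penk, the precursor of the enkephalins, averaged 48.3 ± 7.70 CPM per kb over the 12 libraries (SD), and Npy, the precursor of neuropeptide Y, 23.0 ± 5.31 CPM per kb. Cck, the precursor of cholecystokinin, averaged 7.88 ± 1.37 CPM per kb. Sst (somatostatin) averaged 2.45 ± 0.66 and Tac1 (substance P and neurokinin A) 2.27 ± 0.41 CPM per kb. Vip averaged 1.11 ± 0.25 and Adcyap1 0.418 ± 0.081 CPM per kb. The ranges of Penk, Npy and Cck did not overlap each other or those of the other 4. Sst (1.30 to 3.47 CPM per kb) overlapped Tac1 (1.68 to 2.89 CPM per kb) and, at its low end, Vip (0.579 to 1.53 CPM per kb), and the lowest Vip library lay just under the highest Adcyap1 library (0.581 CPM per kb). Exon lengths come from GENCODE M21, which may differ from the annotation the authors counted with. Penk alone took 67.4% of the 14830 reads counted for the 7 genes, so counting error weighed on them unequally. Sst had 10 to 26 counts in a library, Adcyap1 13 to 23 and Vip 21 to 54, whereas Penk had 622 to 1006.

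**Figure D1:**
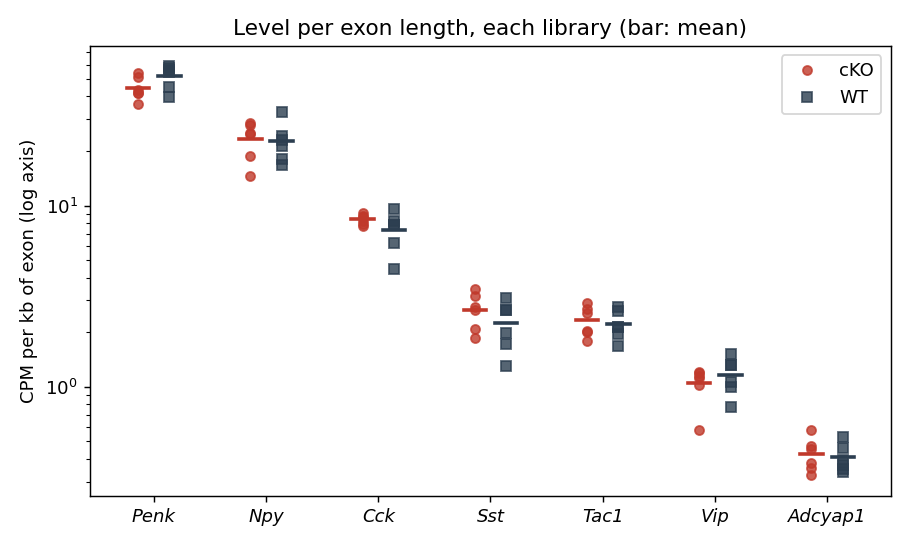
Level of each neuropeptide transcript in CPM per kb of exon (log axis), with 1 point per library, cKO left of WT, and a bar at the mean of each genotype. Penk and Npy lie highest (48.3 and 23.0 CPM per kb over all libraries) and Adcyap1 lowest (0.418), while the points of Sst and Tac1 overlap.

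Npy was the 1 neuropeptide gene whose daily rhythm passed the test, with both genotypes fitted together. Its product inhibits transmitter release and is found in amacrine cells of the mammalian retina. In cKO eyes Npy stood at 14.1, 15.7, 16.2, 14.2, 8.29 and 10.6 CPM at CT2, CT6, CT10, CT14, CT18 and CT22. In WT eyes it stood at 13.0, 18.6, 13.7, 12.0, 10.3 and 9.53 CPM at the same times. The 8 libraries from CT2 to CT14 (12.0 to 18.6 CPM) all lay above the 4 libraries of CT18 and CT22 (8.29 to 10.6 CPM), whichever the genotype. A 24 h cosine common to both genotypes had an amplitude of 0.42 ± 0.06 on the log2 scale (mean to peak, SE), which is a peak 1.79 times the trough, and peaked at CT 7.4, in the middle of the subjective day (edgeR quasi-likelihood test, adjusted p = 0.00288). Fitted within each genotype, the amplitude was 0.43 ± 0.10 with a peak at CT 7.7 in cKO and 0.42 ± 0.09 with a peak at CT 7.0 in WT. These 2 rhythms came from 1 model of all 12 libraries, with a shared estimate of the spread. Neither passed over all genes (edgeR adjusted p = 0.205 in cKO and 0.135 in WT). The difference between the genotypes' rhythms did not pass either (edgeR adjusted p = 0.99965). The shared rhythm of Npy passed in 12 of 12 alternative analyses, with adjusted p from 7.29e-05 to 0.0414. Among the 523 genes with a called shared rhythm, whose median ratio of peak to trough was 1.35, 73 had a larger amplitude than Npy and 61 peaked within 1 h of it.

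By genotype Npy averaged 13.2 ± 3.09 CPM in cKO eyes and 12.9 ± 3.21 CPM in WT eyes (SD over the 6 times), a log2 difference of 0.04 ± 0.09 with a 95% interval of -0.16 to 0.23. The 3 genes of at least 10 CPM whose log2 levels followed Npy most closely over the 12 libraries, among 10703 compared, were Slc25a28 (r = 0.95), a mitochondrial iron carrier, Rdh13 (r = 0.92), a retinol dehydrogenase, and Kdm8 (r = 0.90). These genes were picked for their likeness, and libraries of the same time share their part of the day. Each also had a called shared rhythm, with peaks at CT 7.36 for Slc25a28, CT 7.78 for Rdh13 and CT 6.97 for Kdm8.

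**Figure D2:**
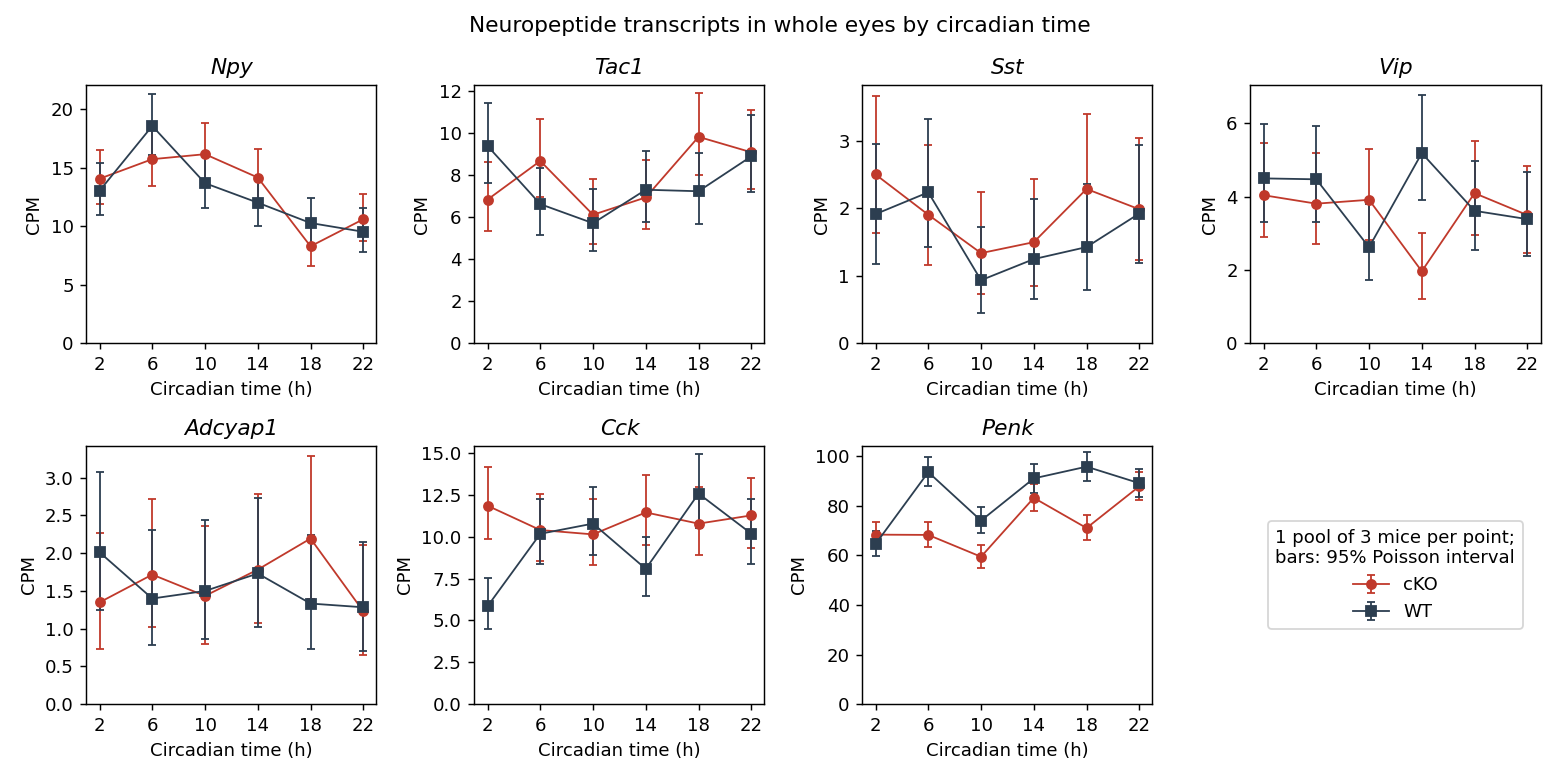
CPM of each of the 7 transcripts against circadian time (h), cKO in red circles and WT in dark squares, 1 pool of 3 mice per point, with bars for the 95% Poisson interval of the count, which covers counting error only. Npy is lowest at CT18 and CT22 in both genotypes (8.29 to 10.6 CPM), and the cKO point of Vip at CT14 lies at 1.97 CPM.

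Over all 7 genes, 1 (Npy) passed the test of a shared 24 h rhythm, where 3.46% of the 15134 tested genes passed. Without adjustment 3 of 7 had p under 0.05 (Npy, Sst and Tac1), against 18.7% of all tested genes. The median amplitude was 0.143 for the 7 and 0.0815 for all tested genes. Low counts enlarge a fitted amplitude, which cannot fall below 0. For a rhythm within cKO eyes 0 of 7 passed (0.152% of all genes) and within WT eyes 0 of 7 (0.363% of all genes), by edgeR and by limma, and Npy was the gene with an unadjusted p under 0.05 in each. The test of a difference in rhythm between cKO and WT called 0 of 7 by edgeR and limma (0.0132% of all genes). At an unadjusted p under 0.05 it also picked out 0 of 7, where 2.58% of all genes were picked out.

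Tac1 and Sst had their lowest values at about the time Npy was high, but neither time course passed the test over all genes. Tac1 stood at 6.84, 8.67, 6.12, 6.94, 9.82 and 9.09 CPM in cKO eyes from CT2 to CT22, and at 9.39, 6.62, 5.72, 7.31, 7.24 and 8.89 CPM in WT eyes. Its 2 libraries of CT10 (5.72 and 6.12 CPM) were lower than the 10 others, which ran from 6.62 to 9.82 CPM. The fitted amplitude was 0.25 ± 0.08 (SE), 1.42 times from trough to peak, with a peak at CT 22.1 (edgeR adjusted p = 0.180). Sst stood at 2.50, 1.91, 1.34, 1.50, 2.29 and 1.99 CPM in cKO eyes, and at 1.92, 2.24, 0.937, 1.25, 1.43 and 1.93 CPM in WT eyes. The 4 Sst libraries of CT10 and CT14 lay between 0.937 and 1.50 CPM and the other 8 between 1.43 and 2.50 CPM, so the lowest of the 8, the WT library of CT18, lay among the 4. Its amplitude of 0.40 ± 0.14, near that of Npy in size, came from 10 to 26 counts per library and did not pass (edgeR adjusted p = 0.218). By genotype, Tac1 averaged 7.91 ± 1.48 CPM in cKO and 7.53 ± 1.38 CPM in WT, and Sst 1.92 ± 0.45 CPM in cKO and 1.62 ± 0.49 CPM in WT. The log2 differences were 0.07 ± 0.12 for Tac1 (95% interval -0.18 to 0.33) and 0.25 ± 0.20 for Sst (-0.17 to 0.67), both over 6 pairs.

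Vip, whose peptide relaxes vessels and marks a class of amacrine cells, stood at 4.04, 3.81, 3.92, 1.97, 4.10 and 3.50 CPM in cKO eyes from CT2 to CT22. In WT eyes it stood at 4.50, 4.48, 2.62, 5.19, 3.62 and 3.39 CPM. The low cKO library at CT14, with 21 counts, faced the highest WT library, with 54 counts, and the other 5 cKO libraries lay within the WT range. The ratio of cKO to WT at CT14 was 0.379, from 1 library on each side. Over all times the log2 difference was -0.15 ± 0.20 (95% interval -0.57 to 0.27), and without the CT14 pair it was 0.07. No 24 h rhythm was called (amplitude 0.12 ± 0.13, edgeR adjusted p = 0.837).

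Adcyap1, which encodes PACAP, a peptide of the ganglion cells that project to the brain's clock, stood at 1.35, 1.72, 1.43, 1.78, 2.19 and 1.23 CPM in cKO eyes and at 2.01, 1.40, 1.50, 1.73, 1.33 and 1.28 CPM in WT eyes. Its coefficients of variation, 21.8% in cKO and 18.1% in WT, were below the 24.3% and 24.7% that counting error alone would give at these counts. Neither time nor genotype gave a difference detectable at this depth (amplitude 0.08 ± 0.15, edgeR adjusted p = 0.929, and log2 difference 0.07 ± 0.21, 95% interval -0.39 to 0.52). Of the 12 ganglion cell markers, 11 were lower in cKO (median log2 difference -0.05). None of the 12 passed the genotype test. The smallest p among them was that of Sncg, at 39.8 ± 2.22 CPM in cKO and 44.9 ± 1.71 CPM in WT (edgeR adjusted p = 0.314).

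Cck was nearly flat over the day in cKO eyes and more spread out in WT eyes. In cKO eyes it stood at 11.8, 10.4, 10.1, 11.4, 10.8 and 11.3 CPM from CT2 to CT22. In WT eyes it stood at 5.84, 10.2, 10.8, 8.08, 12.6 and 10.2 CPM. The cKO libraries varied by 5.98%, under the 9.31% of counting error, and the WT libraries by 24.3%, above their 9.90%. This difference in spread was seen in the values and was not tested. The WT libraries of CT2 and CT14 were the lowest 2 of the 12. The log2 difference between genotypes was 0.21 ± 0.13 (95% interval -0.07 to 0.48) over all pairs and 0.07 without the CT2 pair. The genes most like Cck over the 12 libraries were Ptprb (r = 0.90), Erbb2 (r = 0.89) and Eif3k (r = 0.89), but within cKO alone their r was 0.19, 0.26 and 0.40, against 0.96, 0.96 and 0.95 within WT.

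Penk had the only genotype difference among the 7 that reached an unadjusted p under 0.05, and it did not pass over all genes. Its enkephalins act on delta and mu opioid receptors. In cKO eyes Penk stood at 68.4, 68.3, 59.5, 83.2, 71.0 and 87.8 CPM from CT2 to CT22. In WT eyes it stood at 64.6, 93.6, 74.0, 91.0, 95.8 and 89.1 CPM. Penk was lower in cKO at 5 of 6 times, with ratios of 0.729 at CT6 and 0.742 at CT18 the furthest from 1, and was 1.06 times the WT value at CT2. The means were 73.0 ± 10.5 CPM in cKO and 84.7 ± 12.5 CPM in WT (SD, n = 6 each), and the ranges overlapped. The log2 difference was -0.21 ± 0.06 (95% interval -0.35 to -0.08), with an edgeR adjusted p of 0.507. In 12 alternative analyses it lay between -0.27 and -0.16 with an unadjusted p under 0.05, and the adjusted p ran from 0.231 to 1.00. No rhythm was called for Penk (amplitude 0.14 ± 0.06, edgeR adjusted p = 0.342). Without the CT6 pair the amplitude was 0.28 ± 0.06, with an unadjusted p under 0.05 but an edgeR adjusted p of 0.0747. Penk overlaps the antisense transcript A830012C17Rik by 499 bases in GENCODE M21, and the strandedness of the libraries is not given, so reads of that stretch cannot be assigned to a strand.

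Over all 7 genes, 0 passed the genotype test by edgeR, limma-trend or DESeq2. Of all tested genes, 0.0661% were called higher in cKO and 0.0727% lower. Without adjustment 1 of 7 had p under 0.05 (Penk), where 5.89% of all genes did. Of the 7 log2 differences 5 were above 0 and 2 below, and their median size was 0.154, against 0.0506 for all tested genes. That median is the size of the Vip difference (SE 0.20), from 21 to 54 counts in a library. Low counts enlarge the size of a difference, so the 2 medians are not alike in counting error. The wide intervals of Sst, Adcyap1 and Vip leave room for differences of either sign.

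**Figure D3:**
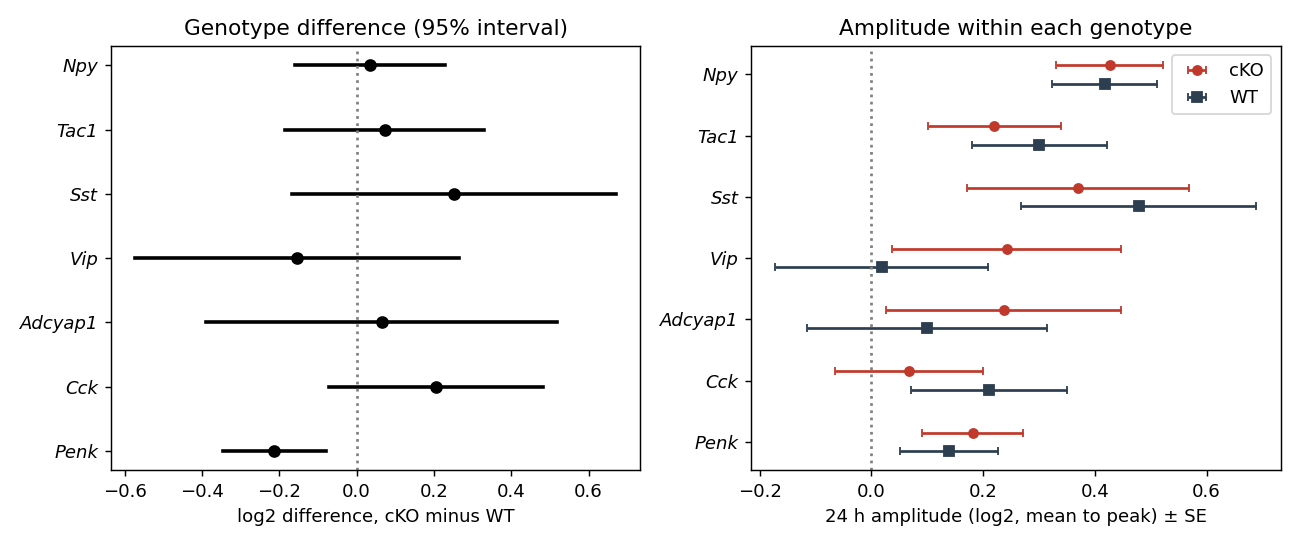
Left, log2 difference in level, cKO minus WT, of each transcript with its 95% interval from edgeR (12 libraries). Right, amplitude of a 24 h cosine in log2 units, mean to peak, ± SE, within cKO (red circles, above) and within WT (dark squares, below). Only the interval of Penk leaves out 0 on the left (-0.35 to -0.08), and Npy has near equal amplitudes on the right (0.43 in cKO and 0.42 in WT).

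Penk also varied between libraries together with markers of connective tissue. In a comparison chosen after the values were seen, each of the 7 genes was set against the mean log2 level of 9 lists of cell type markers, 63 relations in all. Penk followed the 8 stroma and sclera genes (such as Dcn, Lum and Col1a1) with Pearson r = 0.86 and Spearman rho = 0.90 over the 12 libraries (100000 permutations, adjusted p = 0.0334 and 0.0101). Leaving out the 2 libraries farthest from the median of that list, r was 0.91. Within cKO libraries r was 0.92 and within WT libraries 0.82. The permutations ignored genotype and time, so the adjusted p-values do not allow for either. The summed stroma and sclera level was 832, 843, 694, 1256, 888 and 1038 CPM in cKO eyes from CT2 to CT22, and 793, 1216, 907, 875, 1500 and 1148 CPM in WT eyes. The cKO library of CT10 was lowest in both measures and the WT library of CT18 highest in both.

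Penk ran against the 10 rod and bipolar cell genes, with r = -0.83 and rho = -0.85 (permutation adjusted p = 0.0447 and 0.0274). That r was -0.78 without the 2 farthest libraries, -0.90 within cKO and -0.73 within WT. No other relation of the 63 passed. All CPM of a library share its total, which links their levels. Of the 8 stroma and sclera genes, 0 passed the genotype test and 8 were lower in cKO. An unadjusted p under 0.05 was reached by 2 of the 8, where 5.89% of all tested genes reached it. Dcn averaged 379 ± 101 CPM in cKO and 486 ± 140 CPM in WT (edgeR adjusted p = 0.673). The 8 lens genes were all higher in cKO, each with an unadjusted p under 0.05 (5.89% of all tested genes) and none called. Genes of 1 tissue share its part in a library, so these are not 8 separate results. The part of the tissue mix in the Penk difference was not tested. The genes most like Penk over the libraries were Obsl1 (r = 0.93), Gcdh (r = 0.92) and Olfml1 (r = 0.90).

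**Figure D4:**
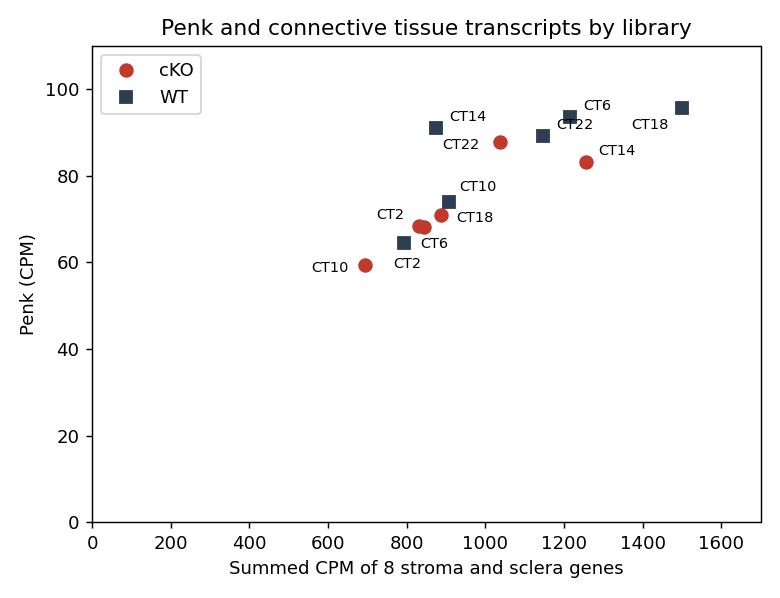
Penk in CPM against the summed CPM of 8 stroma and sclera genes, 1 point per library labelled with its circadian time, cKO in red circles and WT in dark squares. Penk is lowest where the summed level is lowest (cKO CT10, 59.5 against 694 CPM) and highest where it is highest (WT CT18, 95.8 against 1500 CPM).

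The 7 genes showed little common variation. Among the 21 pairs, r over the 12 libraries ran from -0.61 to 0.58, 9 pairs were positive and 0 passed after adjustment. Npy and Tac1 had r = -0.61 and rho = -0.67 (permutation p = 0.0368 and 0.0202, adjusted p = 0.497 and 0.420), which became -0.38 without the 2 farthest libraries. Sst and Tac1 had r = 0.58 and rho = 0.42 (permutation p = 0.0473 and 0.176, adjusted p = 0.497 and 0.887), and 0.38 without the 2 farthest.

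Of 21 genes for receptors of these peptides, 9 had enough counts to be tested and 0 passed for genotype or for a shared rhythm. Without adjustment 1 of the 9 had p under 0.05 for genotype, where 5.89% of all tested genes did. This was Sstr4, a somatostatin receptor, at 1.54 ± 0.43 CPM in cKO and 0.709 ± 0.29 CPM in WT. It was higher in cKO at 6 of 6 times (log2 difference 1.11 ± 0.29, edgeR adjusted p = 0.348). The WT mean of Sstr4 lay under the level set by the filter's minimum count of 10. Sstr4 may therefore have been tested only through its cKO libraries, where it was higher. Vipr2, a receptor of both VIP and PACAP, averaged 42.7 ± 2.37 CPM in cKO and 39.7 ± 3.58 CPM in WT. Adcyap1r1, the receptor selective for PACAP, averaged 7.88 ± 1.39 CPM in cKO and 8.05 ± 0.87 CPM in WT. Cckbr, a cholecystokinin receptor, had the smallest rhythm p among them (amplitude 0.25 ± 0.07, peak CT 15.3, edgeR adjusted p = 0.124). The opioid receptors were at the floor, with 15 counts of Oprd1, 24 of Oprm1 and 31 of Oprk1 over all 12 libraries.

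Of 14 genes for peptide processing and dense core granules, all tested, 0 passed for genotype and 1 for a shared rhythm, where 3.46% of all tested genes passed for a shared rhythm. That gene was Vgf, a granule protein and peptide precursor, which averaged 8.25 ± 1.97 CPM in cKO and 8.005 ± 2.36 CPM in WT and peaked at CT 8.0 with an amplitude of 0.47 ± 0.07 (edgeR adjusted p = 0.0043). Its peak fell within 1 h of that of Npy, as did 11.7% of the genes with a called shared rhythm. The convertase Pcsk1, with the smallest genotype p of the list, averaged 3.27 ± 0.56 CPM in cKO and 2.76 ± 0.28 CPM in WT (edgeR adjusted p = 0.917). Chgb, a granin of the granule core, averaged 244 ± 6.69 CPM in cKO and 255 ± 14.3 CPM in WT.

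Of 8 peptide-degrading enzymes, 0 passed for genotype and 1 for a shared rhythm (3.46% of all tested genes). Npepps, an aminopeptidase, had an amplitude of 0.13 ± 0.03 with a peak at CT 18.3 (edgeR adjusted p = 0.0323). Mme, neprilysin, which cuts enkephalins and substance P, averaged 19.6 ± 2.40 CPM in cKO and 17.5 ± 2.12 CPM in WT and was higher in cKO at 6 of 6 times (log2 difference 0.16 ± 0.06, edgeR adjusted p = 0.755).

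Of 34 other neuropeptide precursors, 8 had enough counts to be tested, 0 passed for genotype and 1 for a shared rhythm (3.46% of all tested genes). Cartpt, the precursor of the CART peptide of a class of ganglion cells, averaged 33.7 ± 4.31 CPM in cKO and 32.6 ± 3.97 CPM in WT. Its amplitude was 0.21 ± 0.04 with a peak at CT 10.6 (edgeR adjusted p = 0.00989). Pdyn, the precursor of the dynorphins, averaged 21.0 ± 2.04 CPM in cKO and 18.2 ± 2.32 CPM in WT and was higher in cKO at 6 of 6 times, whereas Penk was lower at 5 of 6, but Pdyn did not pass either (log2 difference 0.21 ± 0.08, edgeR adjusted p = 0.688).

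Of 15 activity and CREB-responsive genes, which share with several neuropeptide precursors a response to cAMP, 12 were tested. None passed for genotype, and 4 had an unadjusted p under 0.05, where 5.89% of all tested genes did. These 4 (Fos, Egr1, Nr4a1 and Arc) were all lower in cKO. Their log2 differences were -0.33 ± 0.08, -0.36 ± 0.08, -0.17 ± 0.08 and -0.59 ± 0.25 (SE). Fos was lower in cKO at 6 of 6 times, Egr1 and Nr4a1 at 5, and Arc at 4. Arc lay near the floor, at 0.983 ± 0.11 CPM in cKO and 1.50 ± 0.45 CPM in WT. For a shared rhythm 5 of the 12 passed (Fos, Egr1, Nr4a1, Nr4a3 and Per1), where 3.46% of all tested genes did. Egr1, an immediate early transcription factor, averaged 28.9 ± 37.1 CPM in cKO and 40.4 ± 58.8 CPM in WT and had an amplitude of 2.04 ± 0.28 with a peak at CT 15.2 (edgeR adjusted p = 0.0012). Fos had an amplitude of 1.04 ± 0.16 with a peak at CT 15.7 (edgeR adjusted p = 0.0027). Per1, a clock gene with a CRE, peaked at CT 13.3 with an amplitude of 0.31 ± 0.04 (edgeR adjusted p = 0.0012). The peak of Npy at CT 7.4 came earlier in the day than each of these, and the peak times were not tested against each other.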

How the data were processed

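Gene expression was measured in whole eyes by RNA sequencing of pools of 3 mice, 12 libraries in all. The deposited values are raw counts per gene, whole numbers in a sheet the authors call raw data, per the file headers. For the aligner, counting tool, build, annotation and strandedness, nothing is given in the sources used here. Of 32544 rows, 27 had names turned into dates (a median of 0.158% of a library's counts) and were left out. Totals of the remaining rows ran from 10466253 to 10686868 counts per library. Poisson intervals cover counting error only.

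Counts were scaled by TMM and tested with edgeR 4.0.16 in R 4.3.3 (quasi-likelihood test) on the 15134 genes kept by filterByExpr by genotype (minimum count 10, minimum total 15), and all 7 neuropeptide genes were kept. The genotype model had circadian time as a factor and genotype, so the cKO and WT library of a time form a pair. This pairing comes from the time label alone, since replicate numbers only name samples. Rhythm models had a cosine and sine of 24 h, common to both genotypes or within each. Benjamini-Hochberg adjusted p under 0.05 counted as called. CPM are the counts scaled to the TMM-adjusted library size. Standard errors are those implied by the F statistic, and 95% intervals use the same fit. Alternatives were size factors of DESeq2 1.42.0, DESeq2 itself, limma-trend (limma 3.58.1, prior count 2), no filter, other time terms, and leaving out each pair of libraries. The models were also run on simulated data, with changes placed only in genes above a set mean level. Vip, Sst and Adcyap1 lay below that level, so the simulation does not cover changes in them. Correlations were computed in Python 3.11.15 with numpy 2.4.6 and scipy 1.17.1 on log2 CPM, with 100000 permutations, two-sided. The permutations moved values freely over all libraries, across genotypes and times.

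Exon lengths came from GENCODE M21 (build GRCm38) and promoters from RefSeq (build GRCm38.p6), which held an entry for 6 of the 7 genes. These may not be the authors' build. The 7 genes and all gene lists were chosen with earlier results of these data known. Of the lists, genes that passed a test and up to 4 with the smallest p of each test could be named, and for each neuropeptide gene with a mean of at least 10 CPM, the 3 genes most like it. The remaining marker lists gave the following. Of 6 cornea and conjunctiva genes tested, 1 was called higher in cKO (Krt13), where 0.0661% of all tested genes were. For genotype 0 of 7 extraocular muscle genes, 0 of 9 pigment epithelium and ciliary body genes, 0 of 10 rod and bipolar cell genes and 0 of 3 autonomic and sensory nerve cell genes were called.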

Additional observations from a re-analysis of the deposited data

Results flagged for a closer look

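In cKO eyes the Vip value at CT14, 1.97 CPM, lay far below the other 5 libraries of its genotype (3.50 to 4.10 CPM). Its gap to the nearest of them was 0.72 of the whole range, above the limit of 0.625 for 6 samples. Of 14 groups looked at (7 genes in cKO and in WT), this was the only one set apart, and chance alone sets apart about 5% of groups. It rests on 21 counts in 1 library, with a 95% Poisson interval of 13.0 to 32.1 counts, against 54 counts in the WT library of that time.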

How the results depend on the processing

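For the 7 neuropeptide genes, the calls did not depend on the settings tried. Genes of the other lists were not followed one by one through these settings. Npy passed the shared rhythm test in 12 of 12 alternatives, and none of the other 6 did in any. Nor did any of the 7 pass for genotype, for rhythm within a genotype or for a difference in rhythm. Sst was not tested with the WT libraries fitted alone, where the filter left it out. Leaving out 1 time turned the sign of small genotype differences: the range was -0.074 to 0.20 for Adcyap1, -0.0093 to 0.10 for Npy, -0.0060 to 0.18 for Tac1 and -0.29 to 0.066 for Vip. Shared amplitudes with 1 time left out ran from 0.12 to 0.28 for Penk, 0.39 to 0.47 for Npy, 0.29 to 0.49 for Sst and 0.18 to 0.30 for Tac1. Counts over all genes moved more, and the cause was not tested. The 21 genotype calls became 51 without a filter and 3 with no time term (without the pairing by time), and 5 (without CT2) to 26 with 1 time left out, with 6 without CT6 and 12 without CT10. The 523 shared rhythm calls became 292 when any difference between times was tested, which gives no amplitude, and 217 (without CT10 or CT18) to 368 with 1 time left out. The 23 rhythm calls in cKO became 103 with each genotype fitted alone, 52 without a filter and 3 (without CT10) to 32 with 1 time left out. The 55 calls in WT became 23 fitted alone, 108 without a filter and 13 (without CT22) to 86 (without CT2) with 1 time left out. The 2 calls of a rhythm difference became 7 without a filter and 0 (without CT6 or CT10) to 4 (without CT14) with 1 time left out. The 0 pairs of neuropeptide genes that passed stayed 0 with each time left out and under DESeq2 size factors, settings chosen after seeing the data. Depth limits Sst, Adcyap1 and Vip most.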
